A study of Mus musculus with 6 samples.

Results

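The mechanistic target of rapamycin (mTOR) kinase works in 2 protein complexes, and the 10 genes described here encode the core of both complexes and the best known translation regulators that act below them. The members were *Mtor*, *Rptor*, *Rictor*, *Mlst8*, *Mapkap1*, *Akt1s1*, *Rheb*, *Rps6kb1*, *Eif4ebp1* and *Eif4e*. They were taken as the rows whose gene symbol equalled one of these names, which gave 10 of the 18152 genes in the table, and all 10 were among the 14131 genes with enough counts to be tested. The measurements were RNA sequencing of inner enamel epithelium (IEE), the layer of the tooth germ that gives rise to ameloblasts, taken by laser capture from mandibular first molars of mice at E18.5. There were 3 libraries of *Kdf1* fl/fl mice, which carry floxed *Kdf1* alleles without Cre (control; the labels give them as WT), and 3 of K14-Cre;*Kdf1* fl/fl mice (cKO), in which Cre under the keratin 14 promoter deletes *Kdf1* in epithelium. Both groups share the floxed alleles and the C57BL/6J background, no agent is named, and whether a library pooled several embryos is not given in the sources used here. The question was how loss of *Kdf1*, which encodes keratinocyte differentiation factor 1, changes gene expression in this layer.

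mTOR complex 1 (mTORC1) holds mTOR with raptor (*Rptor*) and mLST8 (*Mlst8*), is switched on at the lysosome by the small GTPase RHEB and is restrained by PRAS40 (*Akt1s1*). It drives cap-dependent translation by phosphorylating S6 kinase 1 (*Rps6kb1*) and the translation repressor 4E-BP1 (*Eif4ebp1*), which otherwise holds the cap-binding protein eIF4E (*Eif4e*). mTOR complex 2 (mTORC2) shares mTOR and mLST8 but contains rictor (*Rictor*) and SIN1 (*Mapkap1*), and phosphorylates AKT and related kinases. The activity of these proteins is set largely by phosphorylation, which RNA sequencing does not measure, so every value below is a transcript level or a difference in transcript level.

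The targeted gene followed the labels: *Kdf1* was at 52.5, 44.3 and 52.7 CPM (counts scaled to library size with edgeR's TMM factors) in the control libraries and at 0, 0.0629 and 0 CPM in the cKO libraries. Library totals lay between 14713918 and 16675133 estimated counts, where 3 counts, taken as the floor of a count of 0, are worth 0.182 to 0.198 CPM. The summed CPM of 10 dental epithelium markers ranged from 12600 to 26000 in control and from 5690 to 9700 in cKO libraries. For 10 dental papilla and odontoblast markers it was 4350 to 23200 in control and 11600 to 12900 in cKO libraries, a sum carried mostly by collagen I, and control 1 was the lowest. Single papilla markers moved apart from that sum: *Twist1* (2.23 on the log2 scale, edgeR adjusted p 0.0498) was called higher, *Prrx1* (2.59), *Col3a1* (2.32) and *Msx1* (1.49) were above control in every cKO library, and the odontoblast product *Dspp* (-3.45) was below it. The median log2 fold change was 0.74 for these 10 markers and -0.79 for the epithelial ones, of which *Cdh1* (-1.50, edgeR adjusted p 0.0498) was called. Immune markers (9 genes) summed to 42.9 to 92.9 CPM in control and 88.6 to 282 CPM in cKO libraries, and endothelial markers (7 genes) to 265 to 330 and 311 to 893 CPM, with cKO 1 the highest for both. Of the immune markers, *S100a8* (3.2) and *S100a9* (3.39) were called higher (edgeR adjusted p 0.0498 each). In all, 4 of the 9 were above control in every cKO library, where 14.5% of all tested genes were. Others of the 9, such as *Ptprc* (0.73) and *Lyz2* (0.18), overlapped. The sum of 7 erythroid markers was 831 to 1300 CPM in control and 799 to 1280 CPM in cKO libraries, and that of 6 skeletal muscle markers stayed between 1.58 and 4.85 CPM in both groups. These shifts accompany every difference of a member or other pathway gene below, and their part in those differences was not tested. In such bulk samples fewer cells of a type and less RNA per cell cannot be told apart.

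None of the 10 members passed an adjusted p of 0.05 in the comparison of cKO with control by edgeR's quasi-likelihood test (p adjusted over all tested genes after Benjamini and Hochberg), where 0.545% of all tested genes (77 of 14131) passed. At an unadjusted p of 0.05, 4 of the 10 members passed, *Rictor* and *Eif4ebp1* higher and *Mtor* and *Mapkap1* lower in cKO, against 24.5% of all tested genes. The member nearest the adjusted threshold was *Mtor* itself, and its call depended on the fit. When the replicate number was entered as a block, *Mtor* was the 1 member of 10 called, against 9.87% of all genes, and DESeq2 also called it as the 1 member, against 12.6% of all genes. No member differed by as much as 1 on the log2 scale. The median log2 fold change of the members was -0.04, beside -0.00 over all tested genes.

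The CPM of the groups did not overlap for 6 of the 10 members, where 30.7% of all tested genes did not overlap. Of these, 4 members were above control in every cKO library (*Rictor*, *Akt1s1*, *Rps6kb1* and *Eif4ebp1*; 14.5% of all genes), and 2 were below (*Mtor* and *Mapkap1*; 16.2% of all genes). In TPM, the authors' unit that is scaled by transcript length, *Rps6kb1* and *Eif4ebp1* overlapped, and 4 members did not. The share of all tested genes was not taken in TPM, so nothing is read from that count.

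**Figure D1:**
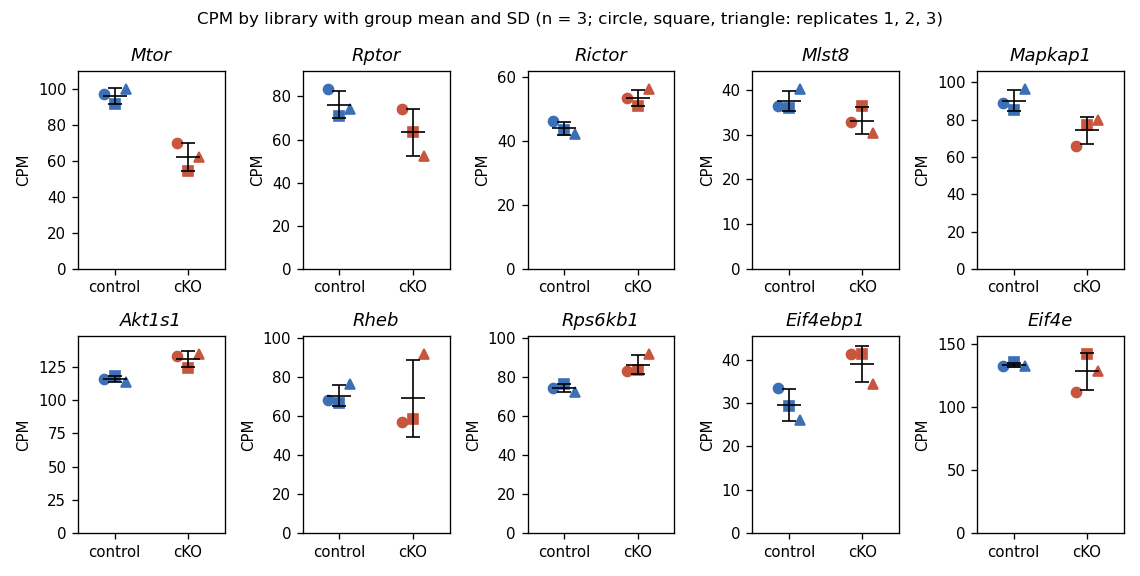
CPM of the 10 members in each of the 3 control and 3 cKO libraries, 1 panel per gene with an axis from 0; points are libraries and the bars give the group mean and SD. The 3 cKO points of *Mtor* (54.6 to 69.7) lie under its 3 control points (91.5 to 99.7), whereas *Rheb* shows 1 cKO library at 91.9 and the others at 56.8 and 58.6.

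*Mtor*, the catalytic kinase of both complexes, had 96.9, 91.5 and 99.7 CPM in the control libraries and 69.7, 54.6 and 62.0 CPM in the cKO libraries. All 3 cKO libraries were below all 3 control libraries. The mean was 96.0 ± 4.18 CPM (SD, n = 3) in control and 62.1 ± 7.59 CPM (SD, n = 3) in cKO, a log2 fold change of -0.63 with a standard error (SE) of 0.12 and a 95% interval from -0.92 to -0.34. The adjusted p was 0.0637 by edgeR's quasi-likelihood test, 0.0256 with the replicate block and 0.00187 by DESeq2. Within same-numbered pairs the log2 ratio of cKO to control was -0.47, -0.75 and -0.69, so the difference had 1 direction in 3 of 3 pairs. Leaving out 1 library at a time kept the log2 fold change between -0.70 and -0.51, with edgeR adjusted p from 0.06 to 0.273. Per length, *Mtor* was at 21.3, 21.7 and 22.3 TPM in control and at 18.2, 12.6 and 15.3 TPM in cKO, again without overlap.

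Among 11598 genes with a mean of at least 5 CPM, those whose log2 CPM followed *Mtor* most closely over the 6 libraries were *Pde4dip*, *Cep41*, *Slc4a2*, *Crnkl1* and *Col17a1*, with Pearson r between 0.993 and 0.9946. Their log2 fold changes were -0.96, -0.70, -0.89, -0.30 and -0.70, all negative as that of *Mtor*, so these correlations carry the difference between the groups and are given only as a description. *Col17a1*, the hemidesmosomal collagen of basal epithelial cells, was among them.

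*Mlst8*, the small subunit shared by both complexes, was at 36.4, 35.9 and 40.1 CPM in control and at 32.7, 36.3 and 30.3 CPM in cKO. The groups overlapped through cKO 2. Its log2 fold change was -0.18 (SE 0.13), with a 95% interval from -0.48 to 0.12 and an edgeR adjusted p of 0.415. It was -0.10 without cKO 3 and -0.11 from log2(TPM + 1).

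*Rptor* encodes raptor, the scaffold that brings substrates to mTORC1. It had 83.3, 71.1 and 74.3 CPM in control and 74.0, 63.7 and 52.3 CPM in cKO libraries. Only cKO 1 reached into the control range. The log2 fold change was -0.27 (SE 0.15), the 95% interval ran from -0.62 to 0.09, and the edgeR adjusted p was 0.318. Without cKO 3 the value was -0.13, and from log2(TPM + 1) it was -0.11.

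*Rictor*, the scaffold particular to mTORC2, had 46.0, 43.2 and 42.1 CPM in control and 53.2, 50.9 and 56.0 CPM in cKO libraries. Every cKO library was above every control library, and the means were 43.8 ± 1.97 and 53.4 ± 2.53 CPM (SD, n = 3 each). The log2 fold change was 0.29 (SE 0.11; 95% interval 0.04 to 0.53). Its adjusted p was 0.161 by edgeR's quasi-likelihood test, 0.17 with the replicate block and 0.1 by DESeq2.

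*Mapkap1* encodes SIN1, the mTORC2 subunit that binds the membrane and recruits AKT. Its levels were 89.2, 85.4 and 96.3 CPM in control and 66.1, 77.2 and 79.9 CPM in cKO libraries. The cKO libraries were again all lower, at a log2 fold change of -0.28 and an SE of 0.12, with an edgeR adjusted p of 0.201. Without cKO 1 the value was -0.18. The transcripts of both mTORC2 scaffold subunits therefore had differences of opposite sign, neither of which passed the adjusted threshold.

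Because *Rptor* is used by mTORC1 and *Rictor* by mTORC2, the ratio of their TPM was taken within each library. It was 2.75, 2.58 and 2.91 in control and 2.19, 2.06 and 1.77 in cKO libraries. The ratio was thus lower in every cKO library, with geometric means of 2.74 and 2.00, and the log2 difference was -0.46. The exact two-sided permutation test gave p = 0.1, the smallest p that 3 against 3 libraries allow. From estimated counts in place of TPM the log2 difference was -0.56, and leaving out 1 library at a time kept it between -0.52 and -0.37.

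**Figure D2:**
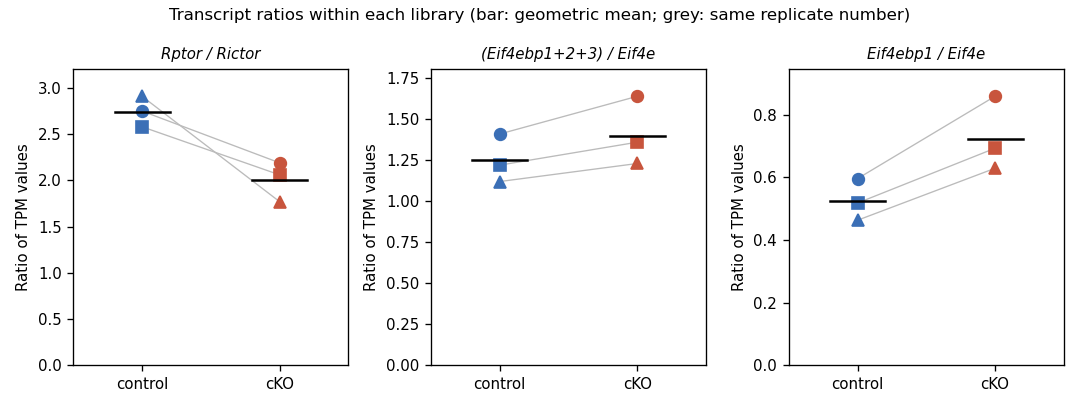
Ratios of TPM within each library on linear axes from 0, for *Rptor* over *Rictor*, for the summed 4E-BP genes over *Eif4e* and for *Eif4ebp1* over *Eif4e*; points are the 3 control and 3 cKO libraries, bars mark the geometric means and grey lines join libraries of the same replicate number. The *Rptor* to *Rictor* ratio was 2.58 to 2.91 in control and 1.77 to 2.19 in cKO libraries, and the summed 4E-BP ratio overlapped between the groups.

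*Akt1s1* encodes PRAS40, an inhibitory subunit of mTORC1 that AKT phosphorylates. It was at 116, 118 and 114 CPM in control and at 133, 124 and 135 CPM in cKO libraries, without overlap. The control libraries were tight, with a coefficient of variation of 1.7%, and the log2 fold change was 0.17 (SE 0.10; 95% interval -0.06 to 0.39), or 0.26 from log2(TPM + 1). The edgeR adjusted p was 0.325, so the difference did not pass the threshold, although the CPM of the groups did not overlap.

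*Rheb*, the direct GTPase activator of mTORC1, was at 68.1, 66.4 and 76.5 CPM in control and at 56.8, 58.6 and 91.9 CPM in cKO libraries. Here cKO 3 was the highest of all 6 libraries and the other cKO libraries were the lowest. The log2 fold change was -0.03 (SE 0.20), with a 95% interval from -0.50 to 0.45 and an edgeR adjusted p of 0.953. Leaving out 1 library at a time gave -0.27 (without cKO 3) to 0.12 (without cKO 1), and the sign also turned without cKO 2 and without control 3.

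*Rps6kb1* encodes S6 kinase 1, which phosphorylates ribosomal protein S6 and eIF4B. Its levels were 74.1, 76.3 and 72.1 CPM in control and 83.2, 83.6 and 91.9 CPM in cKO libraries. All cKO libraries were higher in CPM. This was a log2 fold change of 0.22 (SE 0.10; 95% interval -0.02 to 0.45), with an edgeR adjusted p of 0.234. From log2(TPM + 1) the value was 0.11. In TPM the groups overlapped, at 31.0, 36.9 and 27.2 in control and 36.2, 33.9 and 32.0 in cKO libraries. The transcript length implied by the authors' counts and TPM varied by 28.2% across the libraries for *Rps6kb1*, against a median of 1.34% over 10286 genes with at least 100 counts in every library. For *Rptor* this spread was 24.2%, for *Mtor* 15.3% and for *Mapkap1* 10.9%, so for these genes a difference in TPM need not equal that in CPM.

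*Eif4ebp1*, which encodes the eIF4E-binding repressor 4E-BP1, had 33.4, 29.4 and 26.0 CPM in control and 41.4, 41.4 and 34.3 CPM in cKO libraries. The lowest cKO library was just above the highest control library. The means were 29.6 ± 3.72 and 39.0 ± 4.07 CPM (SD, n = 3 each), and the log2 fold change of 0.40 (SE 0.15; 95% interval 0.05 to 0.75) was the largest positive one among the members. The adjusted p was 0.161 by edgeR's quasi-likelihood test, 0.1 with the replicate block and 0.108 by DESeq2.

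*Eif4e*, the cap-binding protein that 4E-BP1 holds, was at 132, 135 and 132 CPM in control and at 112, 142 and 128 CPM in cKO libraries. The lowest and the highest of all 6 libraries were both cKO. The log2 fold change was -0.06 (SE 0.12), with a 95% interval from -0.33 to 0.22 and an edgeR adjusted p of 0.798, and leaving out 1 library at a time gave -0.11 to 0.04.

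The repressor and its target were also set side by side within each library. The ratio of *Eif4ebp1* to *Eif4e* in TPM was 0.596, 0.518 and 0.463 in control and 0.859, 0.693 and 0.629 in cKO libraries. It was higher in every cKO library, with a log2 difference of 0.46 and an exact permutation p of 0.1, the smallest possible. When *Eif4ebp2* and *Eif4ebp3*, which encode the other 4E-BPs, were added to the numerator, the ratio was 1.41, 1.22 and 1.12 in control and 1.64, 1.36 and 1.23 in cKO libraries, and the groups overlapped, although the cKO library was the higher one in each of the 3 same-numbered pairs. That log2 difference was 0.17 with an exact permutation p of 0.4. It was 0.04 from estimated counts, 0.05 without cKO 1 and 0.09 without control 3, but 0.26 without control 1 and 0.26 without cKO 3. The log2 fold changes of *Eif4ebp2* and *Eif4ebp3* themselves were -0.09 and 0.11, and without cKO 3 they were 0.01 and -0.24.

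**Figure D3:**
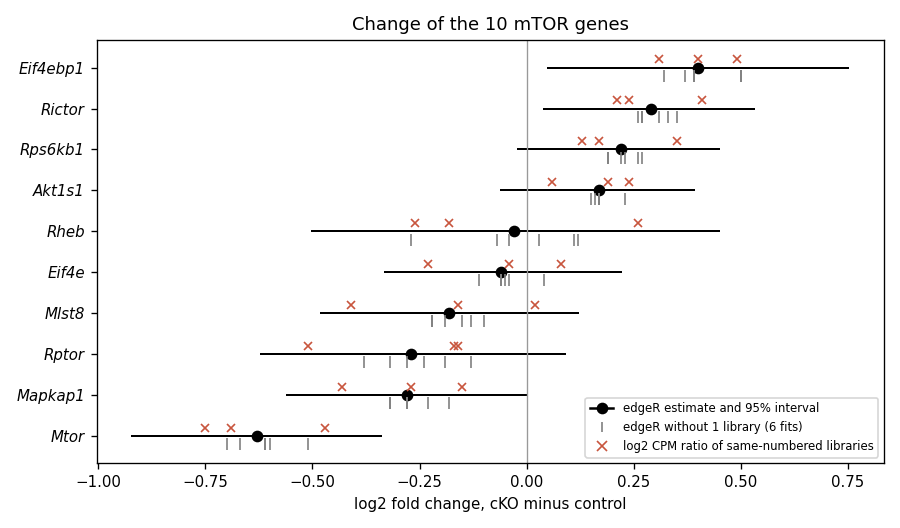
Log2 fold change of each member, cKO against control, with its 95% interval from edgeR's quasi-likelihood fit (n = 3 libraries per group); gray ticks are the edgeR values with 1 library left out, crosses the log2 ratios of same-numbered pairs, and the vertical line marks 0. The intervals of *Mtor* and *Mapkap1* lie below 0 and those of *Rictor* and *Eif4ebp1* above it, and those of the other members cross it.

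On the TPM scale, which allows genes to be compared with each other, the member levels in control spanned from 8.28 for *Rictor* to 139 for *Akt1s1*. These means stood at the percentiles 32.2 and 92.2 of all tested genes. The control order was *Akt1s1* (139), *Eif4e* (135), *Rheb* (95.9), *Eif4ebp1* (71.4), *Mapkap1* (57.9), *Rps6kb1* (31.7), *Rptor* (22.7), *Mtor* (21.8), *Mlst8* (20.8) and *Rictor* (8.28). The control libraries of *Akt1s1* and *Eif4e* overlapped, as did those of *Eif4ebp1* and *Mapkap1* and those of *Rptor* and *Mtor*, whereas the other neighbours in this order did not. The transcripts of PRAS40, eIF4E, RHEB and 4E-BP1 were therefore each at a higher level than that of the kinase. In cKO libraries *Mtor* (15.4) was below *Mlst8* (19.3), and *Eif4ebp1* (98.2) stood beside *Rheb* (97.4), while the rest of the order was the same.

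**Figure D4:**
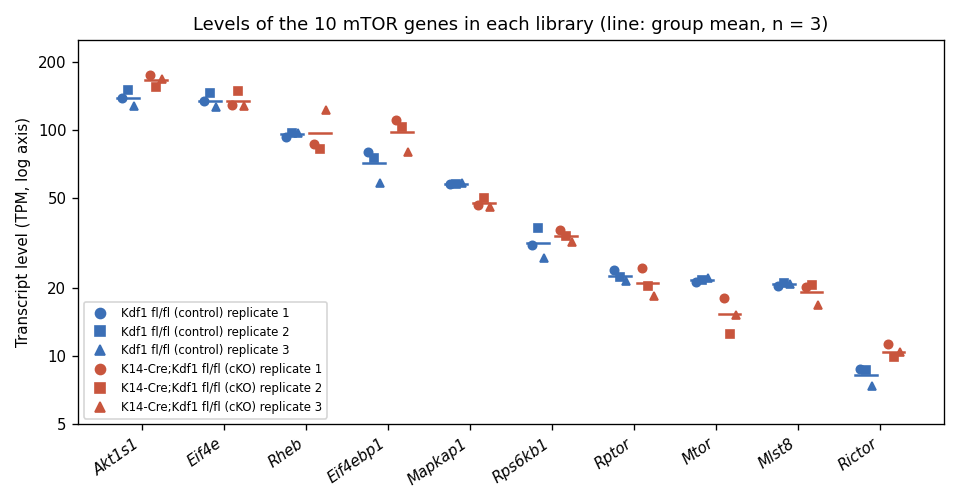
TPM of the 10 members in each control and cKO library on a log10 axis, genes ordered by their control mean. Control means run from 139 for *Akt1s1* to 8.28 for *Rictor*, and the cKO points of *Mtor* (12.6 to 18.2) lie under its control points (21.3 to 22.3).

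The promoters of the members were read from RefSeq windows of the assembly GRCm38.p6, 250 bases before to 50 after each annotated start, which covered 9 of the 10 members in 11 windows. The motif searched was the palindromic E-box CACGTG, bound by MYC and by the MITF and TFEB family that links lysosomes to mTORC1, and it reads alike on both strands. It was in 2 of the 11 member windows (18.2%), against 7.15% of all 32851 windows. The stretches around it are shown because they belong to the GTPase activator and the cap-binding member of the set, with the E-box in capitals.
*Eif4e* (chr3:138527018-138527067, plus strand): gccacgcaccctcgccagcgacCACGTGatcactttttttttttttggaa
*Eif4e* (chr3:138527182-138527231, plus strand): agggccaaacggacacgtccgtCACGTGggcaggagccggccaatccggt
*Rheb* (chr5:24842430-24842479, minus strand): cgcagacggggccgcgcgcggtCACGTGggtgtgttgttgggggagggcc
Both *Eif4e* copies came from the window of its other annotated start. A match describes the letters only, and neither *Eif4e* nor *Rheb* passed the test between the groups.

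Further genes of the pathway were read from lists arranged by role, 90 genes in all, of which 88 were tested (*Sgk2* and *Trib3* were not). None of the 88 passed edgeR's adjusted threshold, which 0.545% of all tested genes passed. At an unadjusted p of 0.05, 7 were higher and 8 lower (15 of 88, against 24.5% of all tested genes), and the median log2 fold change was -0.07. The CPM of the groups did not overlap for 21 of the 88, or 23.9%, beside 30.7% of all tested genes. With the replicate block 1 was higher (*Grb10*) and 1 lower (*Mitf*), where 9.87% of all genes were called, and DESeq2 called 3 higher (*Sgk1*, *Grb10* and *Maf1*) and 1 lower (*Mitf*), where 12.6% of all genes were called. These shares lay below those of all genes.

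*Grb10* encodes an adaptor that mTORC1 phosphorylates and that restrains insulin signalling. It had 59.0, 120 and 51.9 CPM in control and 613, 304 and 153 CPM in cKO libraries, with no overlap but a wide spread within cKO. Among cKO libraries, cKO 1 was also the highest for the papilla markers *Prrx1*, *Col3a1*, *Msx1*, *Twist1*, *Vim* and *Col1a2*, though not for the other papilla markers. The part of such cells in the *Grb10* value was not tested. Leaving out 1 library at a time gave *Grb10* log2 fold changes of 1.58 to 2.68. With all libraries it was 2.21 (SE 0.55), and the adjusted p was 0.0842 by edgeR's quasi-likelihood test, 0.0394 with the block and 0.000249 by DESeq2. *Mitf*, a transcription factor of lysosomal and melanocyte genes held in the cytoplasm by mTORC1, was at 30.8, 22.0 and 26.3 CPM in control and at 14.4, 11.4 and 15.4 CPM in cKO libraries. All cKO libraries were lower. Its log2 fold change was -0.94 (SE 0.19), and the adjusted p was 0.0674 by edgeR, 0.0197 with the block and 0.00107 by DESeq2. *Maf1*, a repressor of RNA polymerase III that mTORC1 inactivates, was at 89.8, 83.5 and 84.0 CPM in control and 115, 116 and 108 CPM in cKO libraries. Its log2 fold change was 0.40 (SE 0.10), with adjusted p of 0.0838 by edgeR and 0.00479 by DESeq2. The median over the 11 autophagy and other mTORC1 substrate genes was -0.02.

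Among 6 tested kinases that mTORC2 phosphorylates or that are close to them, *Sgk1* was at 40.5, 28.6 and 33.2 CPM in control and 229, 67.5 and 52.2 CPM in cKO libraries. Every cKO library was higher and cKO 1 stood far above the others; cKO 1 also had the highest immune and endothelial marker sums, and their part in this value was not tested. The log2 fold change of *Sgk1* was 1.77 (SE 0.55), with adjusted p of 0.122 by edgeR and 0.00602 by DESeq2, and without cKO 1 it was 0.83. *Prkca*, the protein kinase C with the next lowest p, had a log2 fold change of -0.19 (SE 0.22), and the list's median was -0.03.

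Of 6 other complex subunits and assembly factors, *Deptor*, which encodes an inhibitor of both complexes, had 4.71, 6.18 and 6.06 CPM in control and 19.3, 7.11 and 8.90 CPM in cKO libraries, so that cKO 1 was again the highest. Its log2 fold change was 1.06 (SE 0.39) with an edgeR adjusted p of 0.162, and without cKO 1 it was 0.52. *Prr5l*, an mTORC2-associated subunit, was at -0.68 (SE 0.24; edgeR adjusted p 0.143) and at -0.41 without control 3, and the median of the 6 was -0.14.

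The genes upstream of mTORC1 showed no call in edgeR, with the block or in DESeq2. The shares of all tested genes called were 0.545%, 9.87% and 12.6%. In the TSC complex, which turns RHEB off, *Tsc1* had a log2 fold change of 0.36 (SE 0.19) and *Tsc2* one of -0.16 (SE 0.13), or 0.55 and -0.04 without cKO 3, and the median of the 4 genes listed was 0.12. In the lysosomal Rag and Ragulator arm of 13 genes the median was also 0.12. There *Flcn*, whose product folliculin acts on the Rag GTPases, was at 28.4, 30.5 and 28.3 CPM in control and 41.2, 33.7 and 46.5 CPM in cKO libraries, a log2 fold change of 0.48 (SE 0.15). Its binding partner *Fnip1* had one of 0.28 (SE 0.11). In the amino acid sensing arm (16 genes, median -0.11), *Depdc5* of the inhibitory GATOR1 complex was at 47.6, 47.5 and 48.3 CPM in control and 38.5, 27.7 and 36.1 CPM in cKO libraries, a log2 fold change of -0.49 (SE 0.15). The leucine sensor family member *Sesn1* had 0.31 (SE 0.11), whereas *Sesn2* of that family had -0.63 (SE 0.24) and *Castor1* -0.5 (SE 0.17). At an unadjusted p of 0.05 by edgeR's quasi-likelihood test, 1 gene of this arm was higher and 3 were lower. That was 4 of 16, where 24.5% of all tested genes passed in either direction. The edgeR adjusted p of the upstream genes named here lay between 0.115 for *Depdc5* and 0.47 for *Tsc2*.

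Downstream of the complexes, the eIF4F branch of 14 genes had a median log2 fold change of -0.03. No gene of it was called in edgeR, with the block or in DESeq2, against 0.545%, 9.87% and 12.6% of all tested genes. *Eif4g1*, the scaffold that joins eIF4E to the ribosome, had 777, 692 and 665 CPM in control and 595, 550 and 312 CPM in cKO libraries. All cKO libraries were lower and cKO 3 the lowest. Its difference was -0.55 on the log2 scale (SE 0.24), with an edgeR adjusted p of 0.216, and without cKO 3 it was -0.29. *Eif4a1*, the helicase of eIF4F, was at -0.29 (SE 0.12; edgeR adjusted p 0.204). The S6 kinase branch of 7 genes had a median of 0.04, with *Eif4b* at 0.20 (SE 0.14) and *Poldip3* at -0.13 (SE 0.11). Among 11 tested genes of the ATF4 programme the median was -0.09. Of these *Phgdh*, the first enzyme of serine synthesis, was at -0.46 (SE 0.18; edgeR adjusted p 0.17), and *Chac1* at -1.58 (SE 1.13), the latter from very low counts.

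**Figure D5:**
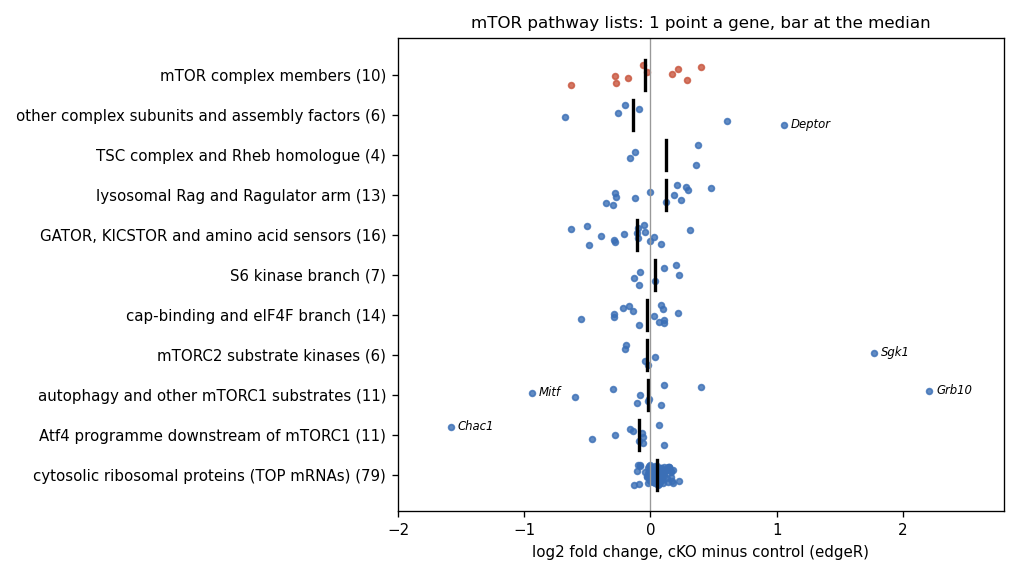
Log2 fold change of every tested gene in the 10 members and in each pathway list, cKO against control; each point is a gene, the bar is the list's median, and the genes farthest from 0 are named. The list medians lie between -0.14 and 0.12, and the 79 ribosomal protein genes lie between -0.13 and 0.23.

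The mRNAs of cytosolic ribosomal proteins are the classical translation targets of mTORC1, through a terminal oligopyrimidine (TOP) tract at their 5′ end, so their transcript levels were read as the last group. None of the 79 genes was called in edgeR, with the block or in DESeq2, where 0.545%, 9.87% and 12.6% of all tested genes were called, and none had groups that did not overlap, against 30.7% of all tested genes. Their log2 fold changes lay between -0.13 and 0.23 with a median of 0.05, and 63 were above 0. That median was 0.20 without cKO 1 and -0.06 without cKO 3, so its sign turned with 1 library. The lowest p belonged to *Rps15a* at 0.23 (SE 0.16; edgeR adjusted p 0.416) and *Rpl24* at 0.18 (SE 0.15; edgeR adjusted p 0.478). Reads of these genes can be shared with near-identical pseudogene copies, which makes single values uncertain, and levels of mRNA do not show how much of it was on ribosomes.

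The start sequences of the 4 ribosomal protein genes with such a start and the highest control TPM are shown beside those of *Mtor* and *Eif4e* to set a TOP tract beside members of the pathway that it serves. A start was counted as TOP-like when the annotated first base was C and the next 4 were pyrimidines. In RefSeq this held for 14 of 68 ribosomal protein windows (20.6%), 2.51% of all windows and 0 of the 11 member windows. An annotated start can lie some bases from the start in use, so a missing match says only that these letters are not at the annotated position. The run of pyrimidines at the start is in capitals.
*Rps27* (chr3:90213625-90213648, minus strand): CCTTTCCggcggtgacgacctccc
*Rpl35* (chr2:39005108-39005131, minus strand): CTCTTTCTCTCgaaccaggctgct
*Rpl38* (chr11:114668580-114668603, plus strand): CTTTCCCCgttctcttcggttctc
*Rpl28* (chr7:4792965-4792988, plus strand): CTCTTTCCgtctccggccgccata
*Mtor* (chr4:148448582-148448605, plus strand): TCCCTggcctagaagacagcgggg
*Eif4e* (chr3:138526191-138526214, plus strand): ggaggcggagggagctggtcctta
The *Mtor* start opens with a short pyrimidine run that begins with T, and the *Eif4e* start shown opens with purines. The other annotated *Eif4e* start, whose window held the E-boxes, is not printed and also opens with purines.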

How the data were processed

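Laser-captured IEE was sequenced as 3 control and 3 cKO TruSeq libraries. The authors deposited 1 table of estimated counts, TPM and FPKM per gene and library. The submitters' processing notes name BWA 0.7.12, Picard 2.6.0 and StringTie, and the genome build is not given in the sources used here. Estimated counts, of which 10.9 to 11.5% per library were not whole, were rounded. The deposited TPM values were used for levels, ratios and an alternative, the deposited FPKM values for an alternative of the ratios, and the authors' group means were not used.

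Counts were fitted over all 14131 genes kept by filterByExpr with edgeR 4.0.16 (TMM, robust quasi-likelihood test, Benjamini-Hochberg adjustment, threshold 0.05) in R 4.3.3, with cKO against control and no covariate. CPM are TMM-scaled. The SE was the absolute log2 fold change over the square root of F. Alternatives used DESeq2 1.42.0, limma 3.58.1, other scalings and filters, log2(TPM + 1) and log2(TPM + 0.1), the replicate number as a block, and each library left out. The labels number the biological replicates 1 to 3 in both groups but do not say that same-numbered libraries belong together. Deviations of same-numbered libraries correlated at 0.135, 0.324 and 0.499, and those of differently numbered ones at -0.41 to 0.144. Whether the numbers mark pairs therefore stayed unknown, and they were entered as a block only in an alternative fit. That fit is printed where it changed a call.

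The members and lists were chosen with earlier results of these data known. Named genes were *Kdf1*, the members, the 2 tested genes of lowest p in each list, list genes called with the block or by DESeq2, and the 5 genes correlated most with *Mtor*. *Eif4ebp2* and *Eif4ebp3* are named as terms of the 4E-BP ratio, 4 ribosomal protein genes for their start sequences, and the cell type markers and the 2 untested genes were chosen after their values were seen. On simulated counts of 14010 genes edgeR recovered 44.4% of genes changed by 1 and 82.3% of those changed by 2 on the log2 scale, with 11 false calls, and DESeq2 60.6% and 87.5%, with 47 false calls. Changes smaller than 1 were not simulated, so these rates do not cover differences of the members' size.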

Additional observations from a re-analysis of the deposited data

How the results depend on the processing

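Of 160 member values under 16 alternatives each, 151 kept their direction and their side of the threshold. *Mtor* passed the threshold under 2 alternatives, DESeq2 and the replicate block, so that the count of members called was 1 under each of these and 0 under all the others. The block changed no other member's call. The other 7 changed sign and belonged to *Rheb* and *Eif4e*: *Rheb* was at 0.01 with upper-quartile scaling, at 0.04 with library size alone and at -0.27 to 0.12 with 1 library left out, and *Eif4e* at 0.000455 with library size alone and at -0.11 to 0.04 with 1 library left out. The number of all genes called moved far more. It was 77 (25 higher and 52 lower), 1786 in DESeq2 (1044 and 742), 1395 with the replicate block (768 and 627), 132 without a filter, 17 from log2(TPM + 1), 9 with library size alone, 7 with DESeq2's size factors in edgeR (1 and 6), 6 with at least 10 counts in every library and 6 in limma-voom, and 1 to 623 with 1 library left out, the most without cKO 3. The cause was not tested. Member counts ran from 411 to 2260 per library, and the biological coefficient of variation common to all genes was 25.4%.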
